A study of Mus musculus with 16 samples.

Results

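The proteasome genes were examined in mRNA collected from dopaminergic neurons of the substantia nigra pars compacta (SNc) of control mice and of mice lacking the mitochondrial calcium uniporter (MCU) in these neurons. They were taken as all genes whose mouse symbol begins with Psma, Psmb, Psmc, Psmd, Psme or Psmg followed by a number, without pseudogenes, and 49 of the 25006 gene identifiers in the count tables met this rule. Of these, 47 are subunits, activators or assembly chaperones of the proteasome. Psmc3ip, which encodes a meiotic recombination factor, is named only for binding an ATPase subunit, and Psme2b is a gene closely similar to the activator gene Psme2.

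The proteasome degrades proteins tagged with ubiquitin. Its 20S core is a barrel of alpha rings, which gate the entrance, around beta rings, which hold the proteolytic sites in Psmb5, Psmb6 and Psmb7. The 19S cap binds ubiquitin chains and unfolds substrates with a ring of ATPases, and chaperones that leave the finished particle guide its assembly. Under interferon, the inducible subunits Psmb8, Psmb9 and Psmb10 replace Psmb5, Psmb6 and Psmb7 to form the immunoproteasome, which supplies peptides for major histocompatibility complex (MHC) class I. In neurons, degradation by the proteasome clears damaged and short-lived proteins, and its failure has long been studied in Parkinson's disease.

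The control group held 8 mice of genotype DAT-Cre +/- and the MCU-KO group 8 mice of genotype DAT-Cre+/- MCU fl/fl, so all animals carried 1 copy of Cre expressed from the dopamine transporter locus. By the paper, the controls came from crossing DAT-Cre +/+ with C57/BL6 mice, and the MCU-KO mice from crossing MCU fl/fl with DAT-Cre mice. The loss of MCU and the breeding line therefore cannot be told apart in any difference between the groups. All 16 received an adeno-associated virus (AAV9) in the SNc on both sides, whose Cre-dependent construct carries Rpl22l1 with Myc and DDK tags and tdTomato behind the EF1a promoter. Cells with Cre make from it the tagged ribosomal protein of the RiboTag method. The tissue was taken 30 days after injection at postnatal day 45, the tagged ribosomes were immunoprecipitated, and the polyadenylated RNA bound to them was sequenced, with 1 library per mouse. A count therefore measures ribosome-bound mRNA of a tissue sample, in which fewer cells of a type and less RNA per cell cannot be told apart.

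Libraries held 18999107 to 22016362 counts in control and 14129527 to 20582204 in MCU-KO. All 11 dopaminergic markers, among them Th and Slc6a3, were counted in every mouse, and their summed normalized counts (counts divided by a size factor for each library) were 342213 ± 28818 in control and 333546 ± 49850 in MCU-KO (SD, n = 8 each). Markers of other cells were also present, with summed normalized counts of 17089 to 31546 for 8 astrocyte genes and 57024 to 129942 for 8 oligodendrocyte genes across the mice. Mcu itself ranged from 120.3 to 828 normalized counts in control and from 5.82 to 410 in MCU-KO. The log2 fold change of MCU-KO against control (log2FC) was −1.19, with a 95% confidence interval of −2.41 to 0.04 (adjusted p = 1.00, edgeR quasi-likelihood test). The count covers the whole gene, and the reads of the deleted exons were not separated in it. Across all 12390 genes that passed the filter on low counts, 22 (0.178%) had an adjusted p under 0.05 and 547 (4.41%) an unadjusted p under 0.05, of which 279 (2.25% of genes) were higher in MCU-KO. In 32 genes (0.258%) the ranges of the genotypes were separate.

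The inducible and constitutive catalytic subunits are under different control, and the DNA before their starts is shown for that reason. The transcription factors Nfe2l1 and Nfe2l2 bind the antioxidant response element, with the core TGACNNNGC, in front of many proteasome genes. The GAS element TTCNNNGAA mediates responses to interferon gamma, and the core GAAANNGAA belongs to the interferon-stimulated response element. Capitals mark a match to one of these motifs on either strand, and the stretches are from RefSeq on GRCm38.p6, printed 5′ to 3′ on the strand of the gene.
Psmb5, chr14:54618023-54618245, minus strand: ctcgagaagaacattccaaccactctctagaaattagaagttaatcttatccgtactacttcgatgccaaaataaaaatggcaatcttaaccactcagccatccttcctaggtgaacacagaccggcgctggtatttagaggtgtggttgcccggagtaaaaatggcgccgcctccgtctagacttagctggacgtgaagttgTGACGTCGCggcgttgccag
Psmb6, chr11:70525107-70525356, plus strand: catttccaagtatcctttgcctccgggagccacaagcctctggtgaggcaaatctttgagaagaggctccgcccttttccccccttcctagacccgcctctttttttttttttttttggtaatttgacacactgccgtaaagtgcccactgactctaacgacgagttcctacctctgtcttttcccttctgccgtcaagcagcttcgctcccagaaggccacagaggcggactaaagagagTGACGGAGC
Psmb8, chr17:34198088-34198116, plus strand: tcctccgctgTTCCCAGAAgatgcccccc

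In Psmb5 and Psmb6 the capitals are the antioxidant response element core, beginning 47 and 9 bases before the RefSeq start. In Psmb8 they are a GAS match, beginning 97 bases before the RefSeq start and inside the first exon of a longer transcript that GENCODE annotates. Among all 32851 RefSeq windows of 250 bases before a start, 10.2% held the antioxidant response element core, 7.02% the GAS letters and 7.13% the interferon-stimulated response element core. The proteasome genes had 44 windows for 41 symbols. The antioxidant response element core was found in 5 of the windows, those of Psmb5, Psmb6, Psmc6, Psmd9 and Psmd12, the GAS letters in those of Psmb8 and Psmg1, and the interferon-stimulated response element core in those of Psmb3, Psmd4 and Psmd9. Psmb9 and Psmb10 held none of the 3 in their windows, and Psmb7 had no entry. All 250 bases of the windows of Psmb8 and Psmb9, 52 bases of that of Psmb10 and 27 of that of Psmb5 lie in exons that GENCODE annotates, and these bases are not DNA before a GENCODE start. The 9 matching bases that a window holds describe its letters and say nothing of binding.

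Subunits of the core and cap were counted deeply in every mouse. All proteasome genes together took 1.01% ± 0.0351 of the counts in control and 1.01% ± 0.0534 in MCU-KO (SD, n = 8 each). To compare genes, normalized counts were divided by the length of all annotated exons in kb, and by the length of the principal transcript where that changed an order. In control, the 14 constitutive core subunits had a median of 2805 normalized counts per kb of exon and the 17 cap subunits a median of 1155. The lowest and highest of the core, Psma3 and Psmb6, stood at 953 ± 227 and 6727 ± 763 normalized counts per kb of exon (SD, n = 8), a ratio of 7.06. The ratio between the same genes was 12.1 per kb of principal transcript.

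Subunits present in equal numbers in the core thus differed severalfold in ribosome-bound mRNA. In the alpha ring, Psma6 was highest per kb of exon at 4327 ± 694 (SD, n = 8), whereas Psma7 was highest per kb of principal transcript at 12381 ± 788 (SD, n = 8). In the beta ring, Psmb7 was lowest on both scales, at 1033 ± 140.3 normalized counts per kb of exon (SD, n = 8). Among the ATPases, which thread the substrate into the core, Psmc6 was lowest at 764 ± 137 and Psmc5 highest at 8484 ± 821 per kb of exon (SD, n = 8). Among the other cap subunits, Psmd11, a scaffold of the lid, was lowest at 452 ± 60.5 and Psmd4, a receptor for ubiquitin chains, highest at 2837 ± 303 per kb of exon (SD, n = 8). The order of these 4 genes was the same per kb of principal transcript.

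Activators and chaperones had lower medians than the core, at 1157 and 715 normalized counts per kb of exon in control. Psme1 and Psme2, which form the PA28 activator, had a neighbouring position on chromosome 14, and Psme2 was counted at 1592 ± 151.6 normalized counts per kb of exon in control (SD, n = 8). Psme4, which encodes the activator PA200, was lowest of the activators at 26.2 ± 26.2 per kb of exon (SD, n = 8). Of the 7 chaperones, Psmg4 was highest at 1570 ± 222.8 and Psmd9 lowest at 165 ± 48.5 per kb of exon (SD, n = 8), whereas Psmd5 was lowest per kb of principal transcript at 326 ± 134 (SD, n = 8). The thymus-specific Psmb11 had 0 counts in all 16 libraries, which would allow up to 3 counts in each if counts were independent molecules. The testis-specific Psma8 was counted in 2 mice, at 55 counts in control mouse 8 and 17 in MCU-KO mouse 1. Psmc3ip was at 0 in 5 control and 4 MCU-KO mice, and these 3 genes did not pass the filter on low counts.

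**Figure D1:**
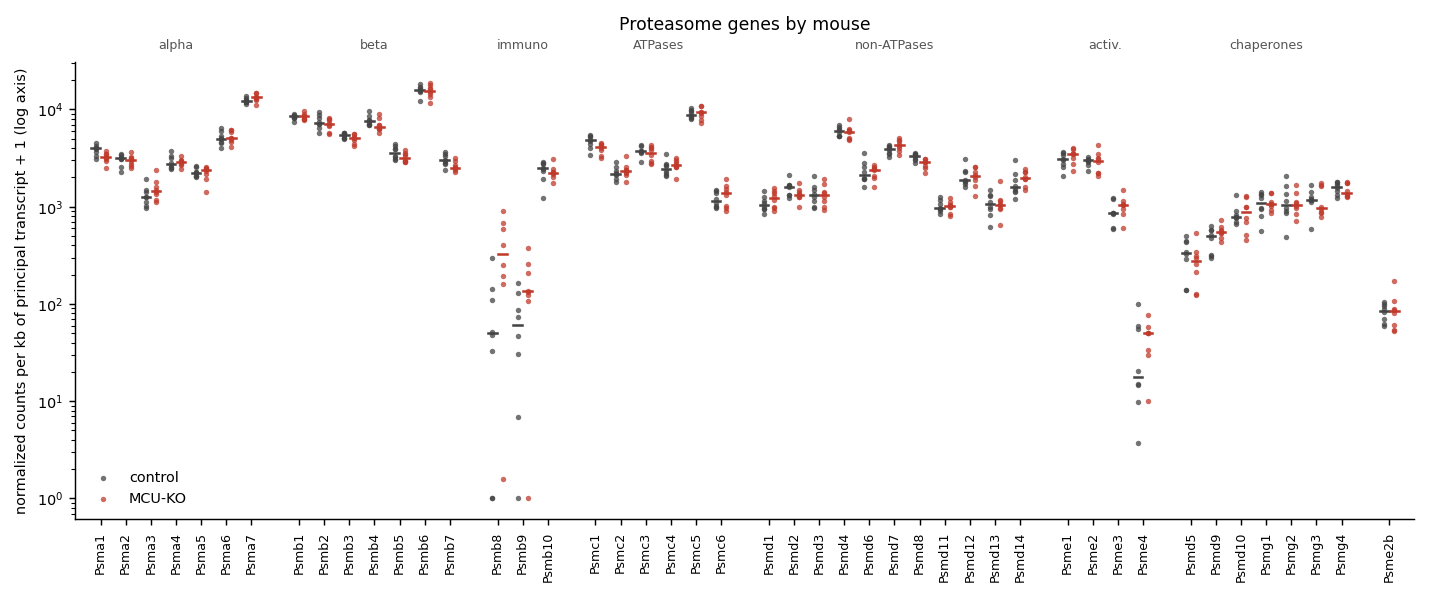
Normalized counts per kb of principal transcript plus 1 (vertical log axis) of the 46 proteasome genes that passed the filter on low counts, by subcomplex along the horizontal axis; each point is 1 mouse (control grey, MCU-KO red) and each line the median of 8 mice. Core and cap genes sit in narrow bands that coincide between the genotypes, whereas Psmb8, Psmb9 and Psme4 are low and spread over more than 1 order of magnitude.

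The proteasome genes varied little between mice. The coefficient of variation in control had a median of 16.8% over the 46 tested genes, and 42.6% over all 12390 genes tested. In MCU-KO the medians were 16.7% and 39.9%. The lowest was that of Psmb1, a structural beta subunit, with 5.22% in control, and the highest that of Psmb8 with 117%. Most proteasome genes were counted at a high level, and the part of the level in this difference was not tested.

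Between MCU-KO and control, 0 of the 46 proteasome genes passed an adjusted p of 0.05 in edgeR (quasi-likelihood test, Benjamini-Hochberg adjustment over 12390 genes), beside 0.178% of all genes. DESeq2 also called 0. An unadjusted p under 0.05 was found for 4 proteasome genes in edgeR, 5 in DESeq2 and 3 in limma-voom, where 4.41% of all genes passed in edgeR. In every proteasome gene the ranges of the 2 genotypes overlapped. In MCU-KO, 22 of the tested genes had a higher and 24 a lower estimate, with a median log2FC of −0.011 beside 0.0025 over all genes.

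The intervals were narrow for the constitutive particle. The 95% confidence interval of the fold change lay within 1.5-fold in either direction for 39 of the 46 proteasome genes, and for 26.4% of all genes tested. It did so for all 14 constitutive core subunits and all 17 cap subunits. The genes with wider intervals were Psmb8, Psmb9, Psmd5, Psmd9, Psme2b, Psme4 and Psmg2. Summed over the constitutive core, normalized counts were 93938 ± 5550 in control and 92037 ± 5065 in MCU-KO, and over the cap 80669 ± 3807 and 80125 ± 5588 (SD, n = 8 each). The ratio of the cap sum to the core sum was 0.861 ± 0.0575 and 0.872 ± 0.064 (SD, n = 8 each).

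**Figure D2:**
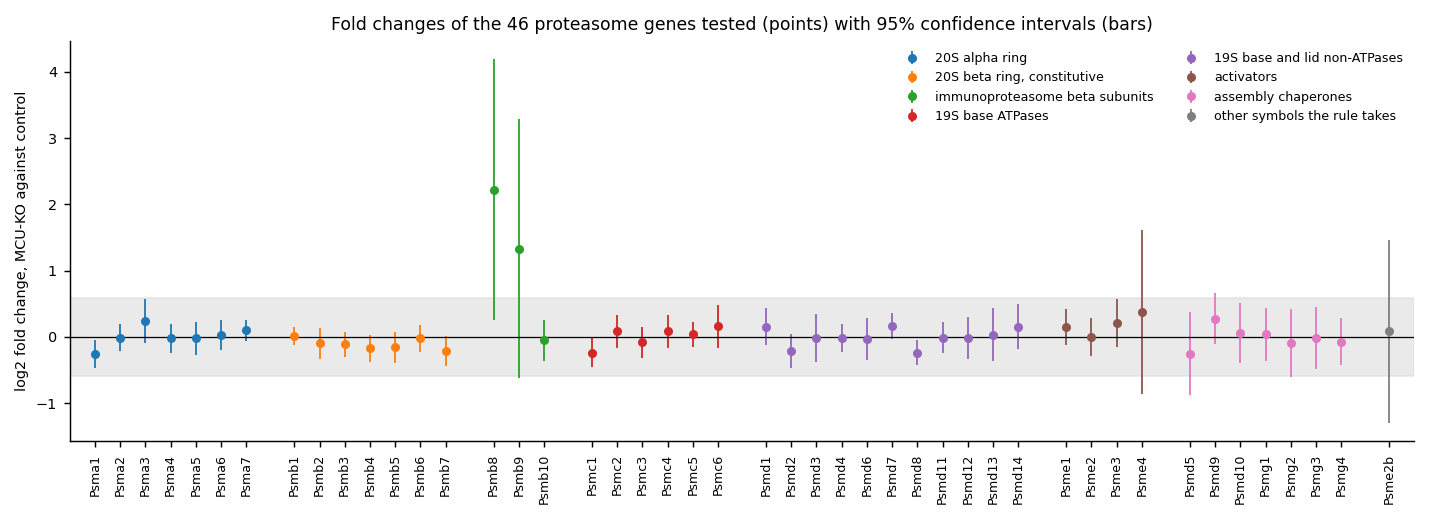
Log2 fold change of MCU-KO against control (vertical axis) for the 46 proteasome genes tested, coloured by subcomplex; points are edgeR estimates, bars 95% confidence intervals, and the grey band marks changes within 1.5-fold. All core and cap intervals lie inside the band, and the estimates of Psmb8 and Psmb9 lie far above it with wide intervals.

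Of the alpha ring, 3 genes had a higher and 4 a lower estimate, with a median log2FC of −0.012. Psma1 had the smallest p of all proteasome genes. It was counted at 3753, 4782 and 5438 normalized counts (lowest, median and highest mouse) in control and at 2985, 3858 and 4480 in MCU-KO. The MCU-KO median was near the lowest control mouse and the ranges overlapped. Its log2FC was −0.26 (interval −0.47 to −0.053, unadjusted p = 0.0167 and adjusted p = 0.971 from edgeR). Psma3, the least abundant alpha subunit per kb of exon, had an estimate in the other direction, with 2734, 3587 and 5499 normalized counts in control and 3143, 4143 and 6784 in MCU-KO, and its log2FC was 0.24 (interval −0.086 to 0.57). Its groups overlapped over most of their range. Psma6 was counted at 4194, 5218 and 6773 in control and 4295, 5324 and 6440 in MCU-KO, nearly the same range, with a log2FC of 0.031 (interval −0.2 to 0.26).

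Of the 7 constitutive beta subunits, 6 had a lower estimate in MCU-KO and Psmb1 a higher one, with a median log2FC of −0.11. At an unadjusted p under 0.05, edgeR found 0 of them and DESeq2 found Psmb7. Psmb7, the subunit with trypsin-like activity, was counted at 2772, 3467 and 4260 normalized counts in control and 2618, 2924 and 3710 in MCU-KO. Its groups overlapped, and 6 of the 8 MCU-KO mice lay below 7 of the 8 control mice. The log2FC was −0.22 (interval −0.44 to 0.0091). Psmb4, a structural subunit, was counted at 8166, 8911 and 11416 in control and 6833, 7832 and 10508 in MCU-KO. Its MCU-KO median lay below the lowest control mouse although the ranges overlapped, and the log2FC was −0.17 (interval −0.37 to 0.035). Psmb5, with chymotrypsin-like activity, ranged from 2744 through a median of 3223 to 3947 in control and from 2603 through 2856 to 3445 in MCU-KO, a log2FC of −0.16 (interval −0.39 to 0.07). Psmb6, with caspase-like activity, ranged from 9675 through 12656 to 14576 in control and from 9289 through 12504 to 14879 in MCU-KO. The ranges of Psmb6 nearly coincided, and its log2FC was −0.021 (interval −0.22 to 0.18).

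The ATPases of the cap base had 4 higher and 2 lower estimates. Psmc1 was counted at 5450, 7636 and 8624 normalized counts in control and 5075, 6552 and 7162 in MCU-KO. Control mice 1, 3 and 7 were as low as MCU-KO mice, whereas the other 5 control mice exceeded every MCU-KO mouse. The log2FC was −0.24 (interval −0.45 to −0.021, unadjusted p = 0.0327 and adjusted p = 1.00 from edgeR). Psmc5, the most abundant per kb, was counted at 10442, 11677 and 13603 in control and 9449, 12341 and 14412 in MCU-KO, with a log2FC of 0.037 (interval −0.15 to 0.23). Psmc6, the least abundant per kb, was counted at 2175, 2568 and 3320 in control and 2000, 3061 and 4257 in MCU-KO, with a log2FC of 0.16 (interval −0.17 to 0.48). For Psmc5 and Psmc6 the MCU-KO mice reached both below and above the control mice.

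Of the 11 other cap subunits, 7 had a lower and 4 a higher estimate, with a median log2FC of −0.013. Psmd8, a subunit of the lid, was counted at 4285, 5120 and 5479 normalized counts in control and 3411, 4404 and 4785 in MCU-KO. The highest MCU-KO mouse lay above 3 of the control mice. The log2FC was −0.24 (interval −0.43 to −0.044, unadjusted p = 0.0181 and adjusted p = 0.974 from edgeR). Psmd2, a scaffold of the base, was counted at 3662, 4737 and 6209 in control and 2940, 3947 and 5139 in MCU-KO, with a log2FC of −0.21 (interval −0.47 to 0.038). Psmd7, the partner of the deubiquitinase Psmd14, was counted at 5118, 6202 and 6793 in control and 5395, 6799 and 8002 in MCU-KO, with a log2FC of 0.16 (interval −0.032 to 0.36). For Psmd2 the MCU-KO median lay between the lowest and the median control mouse, and for Psmd7 it was level with the highest control mouse. Psmd4 was counted at 7033, 8026 and 9164 in control and 6492, 7884 and 10711 in MCU-KO, a log2FC of −0.017 (interval −0.23 to 0.2). Psmd11 was counted at 2408, 2746 and 3561 in control and 2311, 2890 and 3468 in MCU-KO, a log2FC of −0.0099 (interval −0.24 to 0.23). Both had nearly the same centre in the 2 genotypes.

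All 4 activators had higher estimates in MCU-KO, with a median log2FC of 0.18 and 0 at an unadjusted p under 0.05 in edgeR. Psme2 was counted at 2266, 2880 and 3128 normalized counts in control and 1990, 2858 and 4116 in MCU-KO, with a log2FC of 0.0024 (interval −0.28 to 0.29). The medians were alike and the MCU-KO mice spread more widely. Psme4 was counted at 17.6, 108.5 and 649 in control and 59.2, 320.0 and 492.6 in MCU-KO, with a log2FC of 0.38 (interval −0.86 to 1.61). Control mice of Psme4 covered the whole range of the MCU-KO mice, so that a doubling could not be told from no change. Its log2FC was 0.85 without control mouse 6 and 0.92 with limma-voom, but 0.20 without control mouse 5. Of the 7 chaperones, 3 had a higher and 4 a lower estimate. Psmg4 was counted at 677, 893 and 1007 in control and 704, 774 and 991 in MCU-KO, with a log2FC of −0.071 (interval −0.43 to 0.29). Psmd9 was counted at 776, 1283 and 1644 in control and 1119, 1429 and 1885 in MCU-KO, with a log2FC of 0.28 (interval −0.11 to 0.66). The 3 lowest mice of Psmd9 were control mice. In Psmd9, 25.5% of exon bases also lie in exons of the antisense gene Gm26745, and the strand setting of the counting is not given in the sources used here.

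The inducible catalytic subunits Psmb8 and Psmb9 were low and varied widely between mice, as Psme4 did. Psmb8 (ENSMUSG00000024338, chromosome 17, 34197721 to 34201454 on the plus strand of GRCm38) and Psmb9 (ENSMUSG00000096727, 34181987 to 34187764 on the minus strand) lie in the MHC region on either side of the peptide transporter gene Tap1. Psmb8 had 0, 486, 177, 232, 0, 76.7, 82.2 and 52.4 normalized counts in control mice 1 to 8. It had 262, 658, 312, 408, 969, 1471, 0.97 and 1095 in MCU-KO mice 1 to 8. Thus 7 of the 8 MCU-KO mice exceeded 7 of the 8 control mice, and MCU-KO mouse 7 was among the lowest of all 16. Psmb8 had a log2FC of 2.22 (interval 0.25 to 4.19, unadjusted p = 0.0289 and adjusted p = 1.00 from edgeR), and 20.3% of all genes tested had a lower mean in control. Its log2FC was 3.04 with limma-voom and 2.87 without control mouse 2. The unadjusted p was over 0.05 with limma-voom and without MCU-KO mouse 6 or mouse 8. In Psmb8, 14.7% of exon bases also lie in exons of Gm20496 on the opposite strand.

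Psmb9 had 0, 7.93, 175, 40, 220, 97.1, 62.7 and 115 normalized counts in control mice 1 to 8. It had 280, 184, 177, 144, 350.2, 512, 0 and 167 in MCU-KO mice 1 to 8. The 3 highest mice were MCU-KO mice 6, 5 and 1, and control mouse 1 and MCU-KO mouse 7 had no count. Psmb9 had a log2FC of 1.33 (interval −0.62 to 3.28, unadjusted p = 0.17 from edgeR). If counts were independent molecules, a 0 would allow up to 3 counts in a library. They are not, so a 0 here may allow more. In a library with 0 counts the mRNA was not detectable at this depth. Control mouse 5 shows that the genes did not always go together, since Psmb8 was at 0 and Psmb9 at 220 normalized counts.

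Psmb10 (chromosome 8, 105935735 to 105938444 on the minus strand of GRCm38) was counted at the level of a constitutive subunit. It was counted at 1617, 3252 and 3771 normalized counts in control and 2289, 2932 and 4027 in MCU-KO. The lowest was control mouse 2 and the highest MCU-KO mouse 6. Its log2FC was −0.051 (interval −0.36 to 0.26). Per kb of exon, Psmb10 stood at 1813 ± 417 and its counterpart Psmb7 at 1033 ± 140.3 in control (SD, n = 8 each), and Psmb10 was the lower of the pair in 1 of the 16 mice. Per kb of principal transcript the order turned, with 2358 ± 542 for Psmb10 and 3046 ± 414 for Psmb7 (SD, n = 8 each), and Psmb10 was lower in 13 of the 16 mice. The order of this pair thus rests on the length used, since the annotated exons of Psmb7 total 3421 bases and its principal transcript 1160.

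**Figure D3:**
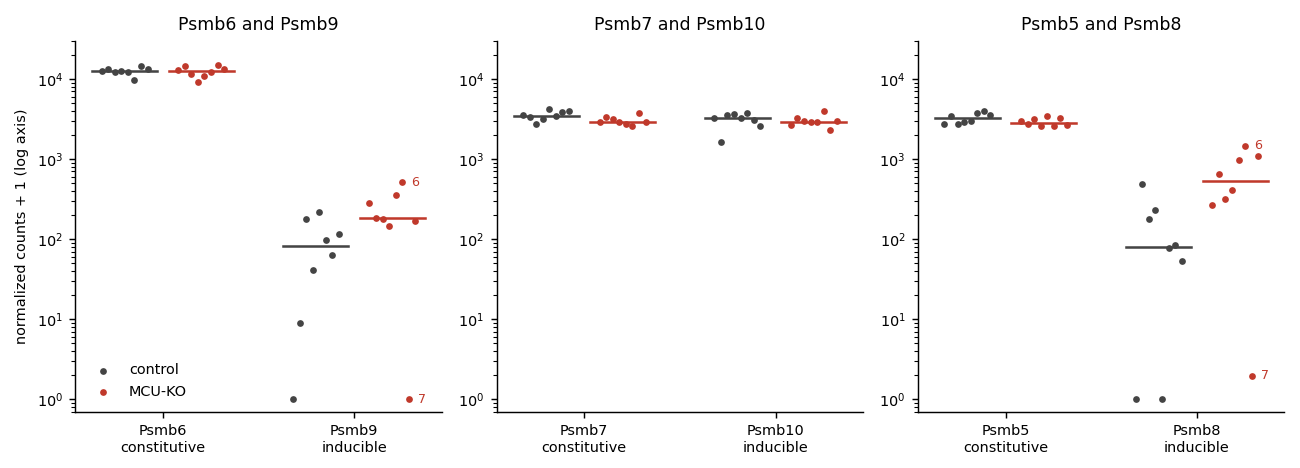
Normalized counts plus 1 (vertical log axis) of each constitutive catalytic subunit and its inducible counterpart, by mouse; points are mice, lines medians of 8 mice, and MCU-KO mice 6 and 7 are marked by number for Psmb8 and Psmb9. Psmb10 lies level with Psmb7, whereas Psmb8 and Psmb9 lie below Psmb5 and Psmb6 in every mouse, with MCU-KO mouse 7 at or near the bottom.

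Relative to their counterparts, Psmb8 and Psmb9 were minor in the mean of each genotype. Per kb of exon, the mean of Psmb8 was 1.13% of that of Psmb5 in control and 5.89% in MCU-KO, and per kb of principal transcript 2.34% and 12.2%. The mean of Psmb9 was 0.365% of that of Psmb6 in control and 0.934% in MCU-KO per kb of exon. Both were below their counterparts in 16 of 16 mice. Single mice stood above these means. The highest log2 ratio of Psmb8 to Psmb5, per kb of exon with a pseudocount of 1 count, was −4.75 in control and −2.73 in MCU-KO. The per-mouse log2 ratio of Psmb8 to Psmb5 (counts per kb of exon, pseudocount of 1 count) was 3.07 higher in MCU-KO, with p = 0.0914 and adjusted p = 0.274 over the 3 ratios in a two-sided exact permutation test. The difference was 1.52 for Psmb9 to Psmb6 and 0.19 for Psmb10 to Psmb7, with adjusted p = 0.386 for each in the same exact permutation test. Psmb8 had 0 counts in control mice 1 and 5 and 1 count in MCU-KO mouse 7. The pseudocount thus largely set the ratios of these mice and part of the 3.07, where edgeR gave Psmb8 a log2FC of 2.22. The differences of the Psmb8 and Psmb9 ratios depended on MCU-KO mouse 7, the MCU-KO mouse lowest in both genes. Without it, they were 4.13 for Psmb8 to Psmb5 and 2.55 for Psmb9 to Psmb6. Leaving it out raised them most, and leaving out some other mice lowered them. This omission is therefore no test of a difference.

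Genes of MHC class I presentation and the interferon response had higher estimates in MCU-KO, as Psmb8 and Psmb9 did. Of 14 such genes tested, 13 had a higher estimate in MCU-KO and 1 a lower one, where 49.6% of all genes tested had a lower one. The median log2FC was 1.02 beside 0.0025 over all genes. An unadjusted p under 0.05 was found for 8, all higher, where 2.25% of all genes were higher at that p, and 0 passed the adjusted threshold in edgeR. The gene lists were chosen with earlier results of these data known, so these counts are no test of a difference. The 3 with the smallest p were the class I heavy chains H2-D1 and H2-K1 and the ubiquitin-like Isg15, with log2FC of 1.17 (interval 0.43 to 1.92), 1.48 (interval 0.51 to 2.45) and 2.97 (interval 0.82 to 5.11), and adjusted p of 0.627, 0.671 and 0.849 from edgeR. The summed normalized counts of the 16 listed genes were 4584, 10862 and 19222 in control and 4969, 23129 and 61394 in MCU-KO (lowest, median and highest mouse). Abundant class I genes weigh most in this sum. The mean of H2-D1 was 2849 in control and 6416 in MCU-KO, and that of Isg15 91.7 and 719. MCU-KO mouse 6, the highest in Psmb8 and Psmb9, was the highest in this sum, and MCU-KO mouse 7 was lower than every other MCU-KO mouse. In the same 2 mice the dopaminergic marker sum was the lowest and the highest of all 16, at 246346 in mouse 6 and 413258 in mouse 7.

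Microglial markers were counted beside them. Of 12 tested, 10 had a higher and 2 a lower estimate in MCU-KO, 1 of them at an unadjusted p under 0.05, with 0 called in edgeR. The sum of the 13 listed markers was 2134, 3835 and 6517 normalized counts in control and 2453, 5058 and 9273 in MCU-KO, again highest in MCU-KO mouse 6 and lowest of the MCU-KO mice in mouse 7. The marker at an unadjusted p under 0.05 was C1qc, higher in MCU-KO with a log2FC of 1.15 (interval 0.30 to 2.00, adjusted p = 0.849 from edgeR). P2ry12, 1 of the 2 with a lower estimate, was at 0 in 1 control and 4 MCU-KO mice, and Trem2 in 2 and 3. Itgam was at 0 in 7 control and 3 MCU-KO mice, Tmem119 and Aif1 in 2 and 0, and Cx3cr1 in 1 and 0. The part that cells other than dopaminergic neurons have in the level of Psmb8 and Psmb9 was not tested.

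Across the 16 mice, log2 normalized counts (pseudocount of 1) of 8 proteasome genes were related to the log2 sums of these 2 lists, 16 relations in all, with permutation p-values adjusted over them. The permutations over all mice took no account of genotype. A relation over all mice therefore holds both the difference between the genotypes and any relation within them. Over all mice, Psmb8 rose with the MHC class I and interferon sum, with Pearson's r = 0.66 (p = 0.0055, adjusted p = 0.022, permutation test) and Spearman's rho = 0.78 (p = 0.00057, adjusted p = 0.003, permutation test). Without the 2 mice farthest from the median of the sum, r was 0.64. Within genotypes, r was 0.89 in MCU-KO (p = 0.0126, exact permutation test) and 0.22 in control (p = 0.565, exact permutation test). It was not detectable within control, where 2 mice had no Psmb8 count. Psmb9 gave r = 0.53 over all mice (p = 0.0344, adjusted p = 0.0918, permutation test) and rho = 0.64 (p = 0.0088, adjusted p = 0.0281, permutation test), with r = 0.91 within MCU-KO and −0.14 within control, and r = 0.42 without the 2 farthest mice. Without MCU-KO mouse 7, low in Psmb8, Psmb9 and the sum, r within MCU-KO was 0.54 for Psmb8 (p = 0.206, exact permutation test) and 0.80 for Psmb9 (p = 0.0246, exact permutation test), and the relation of Psmb8 within MCU-KO thus rested on that mouse. Within MCU-KO, rho was 0.62 for Psmb8 (p = 0.115, exact permutation test) and 0.67 for Psmb9 (p = 0.0831, exact permutation test). Over all mice, leaving out each in turn gave r of 0.59 to 0.72 for Psmb8 and 0.39 to 0.59 for Psmb9. Against the microglial sum, r of Psmb8 was 0.50 (p = 0.0478, adjusted p = 0.0955, permutation test), 0.73 within MCU-KO (0.37 without mouse 7) and 0.11 within control. Against the same sum, r of Psmb9 was 0.29 (adjusted p = 0.369, permutation test), 0.74 within MCU-KO (0.44 without mouse 7) and −0.38 within control.

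Psmb7 fell with the MHC class I and interferon sum, with r = −0.83 (p = 6.0e-05, adjusted p = 0.00096, permutation test) and rho = −0.87 (p = 3.0e-05, adjusted p = 0.00048, permutation test). It held without the 2 farthest mice (r = −0.81), and within each genotype r was −0.94 in MCU-KO (p = 0.000124, exact permutation test) and −0.63 in control (p = 0.098, exact permutation test). Without MCU-KO mouse 7, r within MCU-KO was −0.87 (p = 0.0109, exact permutation test). Against the microglial sum, r of Psmb7 was −0.83 over all mice (p = 0.00012, adjusted p = 0.00096, permutation test), −0.90 in MCU-KO and −0.72 in control, with rho = −0.80 (p = 0.00048, adjusted p = 0.003, permutation test) and r = −0.86 without the 2 farthest mice. Psmb5 fell with the microglial sum as well, with r = −0.68 (p = 0.0039, adjusted p = 0.021, permutation test) and rho = −0.69 (p = 0.0043, adjusted p = 0.0174, permutation test). Its r was −0.49 without the 2 farthest mice, −0.81 within control and −0.39 within MCU-KO. Against the MHC class I and interferon sum, r of Psmb5 was −0.62 (p = 0.0109, adjusted p = 0.0349, permutation test), with rho = −0.58 (adjusted p = 0.0573, permutation test) and r = −0.51 without the 2 farthest mice, −0.68 within control and −0.40 within MCU-KO. Psmb6 gave r = −0.36 with each sum (adjusted p = 0.251 for each, permutation test), and single mice moved it. With the MHC class I and interferon sum, r was −0.60 without control mouse 6 and −0.25 without MCU-KO mouse 7. With the microglial sum, r was −0.71 without control mouse 6 and −0.20 without MCU-KO mouse 4, and it was −0.78 within MCU-KO (p = 0.0226, exact permutation test) and 0.17 within control. Without the 2 farthest mice it was −0.075 with the former sum and −0.67 with the latter. Psmb10, Psme1 and Psme2 had adjusted p of 0.0955 to 0.761 for r in the permutation test. The part that the share of other cells has in these relations was not tested. How many of all genes follow these sums as closely was not tested either. The 2 sums were both highest in MCU-KO mouse 6, and among MCU-KO mice both lowest in mouse 7. Their relation to each other was not tested, so relations to the 2 sums cannot be taken as separate results.

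**Figure D4:**
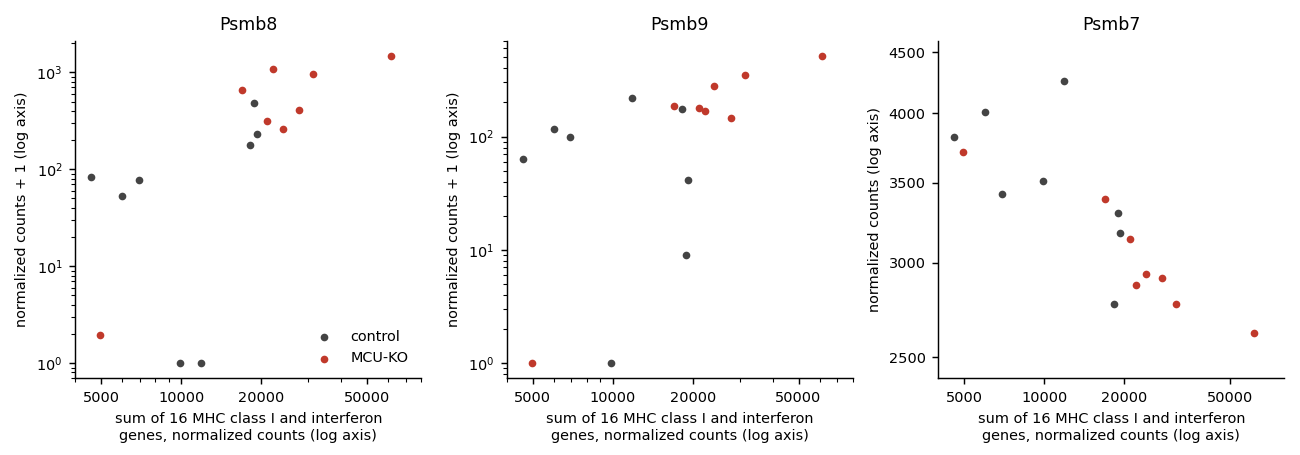
Normalized counts of Psmb8 and Psmb9 (plus 1) and of Psmb7 (vertical log axes) against the summed normalized counts of 16 MHC class I and interferon genes (horizontal log axis); each point is 1 mouse. Psmb8 and Psmb9 are highest and Psmb7 is lowest in the MCU-KO mouse with the highest sum. MCU-KO mouse 7 lies far to the left, and control mice 2, 3 and 4 lie to the right of MCU-KO mouse 2. The remaining MCU-KO mice lie to the right of every control mouse.

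Genes that work with the proteasome were examined as a further list. Of 32 shuttle factors, ubiquitin genes, ubiquitin-chain enzymes and proteasome regulators, among them Nfe2l1 and the assembly factor Pomp, 15 had a higher and 17 a lower estimate, with a median log2FC of −0.0046. The adjusted threshold was passed by 0 in edgeR and 1 in DESeq2, and 2 had an unadjusted p under 0.05 in edgeR, both lower. Ufd1, a cofactor of the segregase Vcp, had a log2FC of −0.40 (interval −0.79 to −0.014), and Zfand5, a proteasome-binding zinc-finger protein, one of 0.36 (interval −0.0043 to 0.72), with adjusted p of 1.00 for each in edgeR.

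Several of these values rest on sequence that other genes share. Of all stretches of 50 bases in the transcripts of a gene, over 10% also occurred in transcripts of another gene for 12 of the 49 proteasome genes, and 19 genes shared none. The share was 54.1% in Psmb5, mostly with the processed pseudogene Gm3375 and 17.8% in Psmd2. Psme2b shared 69.3% of its stretches, 68.7% with Psme2, so its 81.8 ± 17.3 normalized counts per kb in control (SD, n = 8) are uncertain. Psmb9 shared 4.19% of its stretches with Tap1, and Psmb7 shared 9.26% with Nek6. Reads wholly within a shared stretch match more than 1 gene, and how they were counted is not given in the sources used here.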

How the data were processed

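RiboTag RNA-seq libraries of 8 control and 8 MCU-KO mice were grouped by the genotype in the labels. The authors deposited raw whole-number counts per gene, made by trimming reads, alignment to mm10 (STAR) and htseq-count on an Ensembl annotation. The submitters' processing notes list Trim Galore, STAR and HTSeq. Tool versions, the annotation release and the strand setting are not given in the sources used here. Symbols, positions and lengths were taken from GENCODE M21 on GRCm38, which matched 24942 of 25006 identifiers, and principal transcripts are those tagged by APPRIS. RefSeq windows came from GRCm38.p6.

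The genotypes were compared over all genes with edgeR 4.0.16 in R 4.3.3 (filterByExpr, TMM, glmQLFit and glmQLFTest), Benjamini-Hochberg adjustment and a threshold of 0.05. Normalized counts used the size factors of DESeq2 1.42.0 as divisors. For catalytic pairs an exact permutation test ran over the 12870 divisions of the mice into 8 and 8. Relations were tested by 100000 permutations over 16 mice, without regard to genotype, and by 40320 pairings within a genotype. Intervals cover the spread between mice, and counts without molecular identifiers are not independent molecules. Alternatives used DESeq2, limma 3.58.1, other normalizations, filters and pseudocounts, a replicate block, other lengths and the omission of each mouse. The principal-transcript length was added after the data had been seen. The fit was tested on simulated counts in which 200 of all genes tested were changed. At the threshold, edgeR recovered 8.5% of them at a 1.5-fold change, 39.5% at 2-fold and 69.5% at 4-fold. A gene that was not called is therefore not shown to be unchanged.

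The proteasome genes, the gene lists and the comparisons were chosen with earlier results of these data known. Named in full were the catalytic pairs, the 8 proteasome genes of smallest p and, by subcomplex, the genes with the highest and lowest level per kb of exon in control. From the partner and MHC class I lists, the genes past the threshold or else the 3 with the smallest p were named, except for a gene that is not reported here. Psmc3ip, Psme2b, Psma8, Psmb11, Mcu and the genes sharing sequence were named outside this rule. So were Nfe2l1, Pomp, the named cell markers and other genes mentioned without a fold change. Endothelial markers (4 of 6 tested, all lower) and markers of other neurons (4 tested, 3 higher) had 0 genes past the threshold. The same held for astrocyte (6 of 8 higher in MCU-KO, median log2 fold change 0.26), oligodendrocyte (6 of 8 higher, 0.13) and dopaminergic markers (4 of 11 higher). Tables were made with Python 3.11.15, numpy 2.4.6, pandas 2.3.3 and scipy 1.17.1, and plots with matplotlib 3.10.9.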

Additional observations from a re-analysis of the deposited data

Results flagged for a closer look

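In 110 groups of 8 mice (each proteasome gene, list sum and library total in each genotype), the mouse at one end stood apart from the other 7 in 6, where chance alone sets about 1 in 20 apart, or 5.5 groups. Among proteasome genes these were Psmd10 in control mouse 5 (1885 normalized counts), Psmd13 and Psmd4 in MCU-KO mouse 2 (3699 and 10711 normalized counts) and Psme2b in MCU-KO mouse 6 (144 normalized counts). Psmd10, also called gankyrin, is an assembly chaperone of the base, and Psmd13 and Psmd4 are cap subunits. The summed MHC class I and interferon genes stood apart in MCU-KO mouse 6 (61394 normalized counts), the mouse with the most Psmb8 and Psmb9. The library of MCU-KO mouse 8 had the smallest total, 14129527 counts.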

How the results depend on the processing

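The count of proteasome genes past the adjusted threshold was 0 under DESeq2, limma-voom, both other normalizations, both other filters, the replicate block and the omission of each mouse. Over all genes, DESeq2 called 90 genes and the replicate block 14, where edgeR called 22, and under the replicate block 2 proteasome genes had an unadjusted p under 0.05. Same-numbered mice are different animals and did not deviate together (8 correlations of −0.0605 to 0.0308, 0 over 0.1), so the paired values are given here only. With the replicate block, the log2 fold change was 2.76 for Psmb8, whose unadjusted p was then over 0.05, and 0.94 for Psme4. Leaving out 1 mouse moved the log2 ratio difference of Psmb8 to Psmb5 between 2.32 and 4.13 and that of Psmb9 to Psmb6 between 0.74 and 2.55, the highest values without MCU-KO mouse 7. Of 504 alternative fold changes of the 22 genes named in full, 0 passed the threshold and 25 had the opposite direction, in 7 genes with estimates near 0. Psme2 was −0.041 with limma-voom and −0.031 with the replicate block. With 1 mouse left out, the log2 fold change lay between −0.0102 and 0.091 for Psma6, −0.14 and 0.00031 for Psmb10, −0.064 and 0.032 for Psmb6, −0.0033 and 0.084 for Psmc5, −0.052 and 0.042 for Psmd11, −0.093 and 0.022 for Psmd4 and −0.094 and 0.061 for Psme2. Levels per kb moved beyond 1 SD in 16 of 22 genes with the longest and 17 of 22 with the principal transcript. The widest intervals were those of Psmb8, Psmb9, Psme4 and Psme2b, which were also counted at a low level, and the parts of depth and of spread between mice in them were not tested.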
